A study of Mus musculus with 24 samples.

Results

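Timd4, Axl, Mertk, Tyro3, Gas6, Pros1, Mfge8 and Itgb3bp were followed through liver macrophages, liver endothelial cells (ECs) and whole liver tissue of mutant and control mice. The 8 genes were taken by symbol as a named list of phosphatidylserine receptors, TAM receptors and bridging molecules, and each is present in all 4 count tables, which hold 48574 symbols. All 8 are protein-coding in the GENCODE annotation. RNA-seq counts were available for 24 libraries, 3 in each of 8 groups. The comparisons ask how loss of the ligands BMP9 (encoded by Gdf2) and BMP10 from hepatic stellate cells (HSCs), or of Smad4 from blood-forming cells, altered the liver's macrophages, ECs and tissue.

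The mice are labelled C57BL/6, and the study's methods give the substrain as C57BL/6J. In Gdf2/Bmp10 HSC-KO mice, labelled Bmp9/10-HSC-KO, floxed Gdf2 and floxed Bmp10 were deleted by a Cre driven by the Lrat gene, which is active in HSCs. Their controls are labelled BMP9/10 control for macrophages and control for ECs and tissue. In Smad4 cKO mice, labelled Smad4FF cKO, floxed Smad4 was deleted by Vav1Cre, which acts across hematopoietic cells and so is not confined to macrophages, and Smad4FF mice carried the floxed alleles without the deletion. The macrophage gate was CD45+ Ly6C- F4/80+ CD64+ and the EC gate CD45- CD31+, both from mice aged 8 to 10 weeks, and tissue came from mice aged 12 weeks. By the library names, 3 mice gave both a macrophage and an EC library, 1 control and 2 HSC-KO.

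Cells that die by apoptosis expose the lipid phosphatidylserine on their surface, and phagocytes clear them by a process called efferocytosis. TIM4, the product of Timd4, binds this lipid directly and is known in liver as a surface marker of resident Kupffer cells, the macrophages of the sinusoids. The TAM receptors Tyro3, Axl and Mertk are receptor tyrosine kinases that bind the lipid through soluble bridges, Gas6 and protein S (Pros1), whose lipid-binding end is modified with the help of vitamin K. Gas6 activates all of the TAM receptors, and protein S activates Tyro3 and Mertk. MFG-E8, the product of Mfge8, bridges the lipid to integrins that contain the alpha v chain. Itgb3bp encodes centromere protein R, which is known from the kinetochore, and it has no established role as a bridge, although it is on the list.

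Timd4 and Gas6 were the list genes called in both macrophage comparisons, and the 250 bases before their start sites are shown for that reason, 5′ to 3′ on the strand of the gene, from RefSeq on GRCm38.p6. Timd4 lies on the plus strand of chromosome 11 (46810800 to 46844332) and its window is chr11:46810549-46810798. Gas6 lies on the minus strand of chromosome 8 (13465374 to 13494490) and its window is chr8:13494536-13494785. Capitals mark matches, on either strand, to the SMAD box CAGAC and to GGCGCC, a palindrome bound by BMP-activated SMADs, motifs that were picked with these sequences in view.
Timd4: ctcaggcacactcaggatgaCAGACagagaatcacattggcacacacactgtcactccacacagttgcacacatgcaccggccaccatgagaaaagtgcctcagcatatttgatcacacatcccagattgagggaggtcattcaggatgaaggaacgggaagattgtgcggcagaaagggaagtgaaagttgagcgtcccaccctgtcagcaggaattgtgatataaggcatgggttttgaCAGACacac
Gas6: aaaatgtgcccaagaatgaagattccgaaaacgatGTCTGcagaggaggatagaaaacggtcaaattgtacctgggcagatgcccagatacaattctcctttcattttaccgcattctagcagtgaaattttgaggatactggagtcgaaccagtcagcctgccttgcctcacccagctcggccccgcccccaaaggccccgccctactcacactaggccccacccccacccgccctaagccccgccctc

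The Timd4 window holds 2 SMAD boxes, 230 and 9 bases before the start. The Gas6 window holds 1 SMAD box, 215 bases before the start and read from the other strand. Neither window holds GGCGCC, and none of the marked matches overlaps another. Among the windows of all 8 genes, 3 hold the SMAD box (the third is Axl), and across 32851 RefSeq promoter windows of the same length 42.2% hold it. GGCGCC was found in 1 of the 8 windows, that of Axl, and in 9.59% of all windows. These matches are letters in a window and are not measured sites.

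Library totals ran from 60911527 to 110879155 counts. In liver tissue Gdf2 had 2036, 720 and 2030 counts in controls and 287, 178 and 189 in HSC-KO mice, and Smad4 had 3185 to 4416 counts in Smad4FF macrophages and 1289 to 1669 in Smad4 cKO macrophages. The summed level of 8 pan-macrophage markers was 9790 to 22670 CPM (counts scaled to a common library size) in the 12 macrophage libraries against 3.06 to 18.3 CPM in the 6 EC libraries, and the sum of 12 endothelial markers was 14405 to 19406 CPM in ECs. The sum of 7 Kupffer cell markers was 28446 to 30068 CPM in control macrophages and 31 to 192 CPM in HSC-KO macrophages, and 23525 to 30491 CPM in Smad4FF against 726 to 877 CPM in Smad4 cKO macrophages. Some departures touch the results given here. In HSC-KO ECs the sum of 7 sinusoidal endothelial markers was 47619 CPM in replicate 1 and 2443 and 1121 CPM in replicates 2 and 3, against 137682 to 213564 CPM in control ECs. The endothelial marker sum in macrophages was 68.6 to 389 CPM in controls and 59 to 131 CPM in HSC-KO mice, but 2307, 654 and 2251 CPM in Smad4FF replicates 1 to 3 and 1755 to 2406 CPM in Smad4 cKO mice. Xist, the transcript of the inactive X chromosome, ranged over 13.17 log2 units within the macrophage table and 12.29 within the EC table of the HSC-KO study, so both sexes were present there. In tissue it was -2.55 (log2 CPM) in HSC-KO replicate 3 and 8.33 to 9.52 in the other 5 libraries, and without that replicate Timd4 and Mertk were still the list genes called (-5.79 and -1.16).

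Each comparison was fitted over all genes with edgeR's quasi-likelihood test, and a gene is called when its Benjamini-Hochberg adjusted p is below 0.05 and its log2 fold change exceeds 1 in size. In macrophages of HSC-KO mice 2 of the 7 list genes tested were called, 1 higher and 1 lower, against 11.7% of all 16337 genes tested (6.32% higher and 5.34% lower). In those of Smad4 cKO mice 2 of 8 were called, 1 higher and 1 lower, against 5.43% of 17517 (2.76% higher and 2.67% lower). In ECs 4 of 8 were called, all lower, against 13.7% of 16053 (7.68% higher and 6.01% lower). In liver tissue 2 of 8 were called, both lower, against 2.48% of 17118 (1.03% higher and 1.45% lower). Timd4 was lower in all 4 comparisons, and Gas6 was higher in both macrophage comparisons and not called in ECs or tissue. Mertk was called lower in ECs and tissue, Tyro3 and Pros1 were called lower in ECs, and Axl, Mfge8 and Itgb3bp were called in none of the 4. The 3 HSC-KO comparisons use different libraries, although macrophages and ECs share 3 mice.

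**Figure D1:**
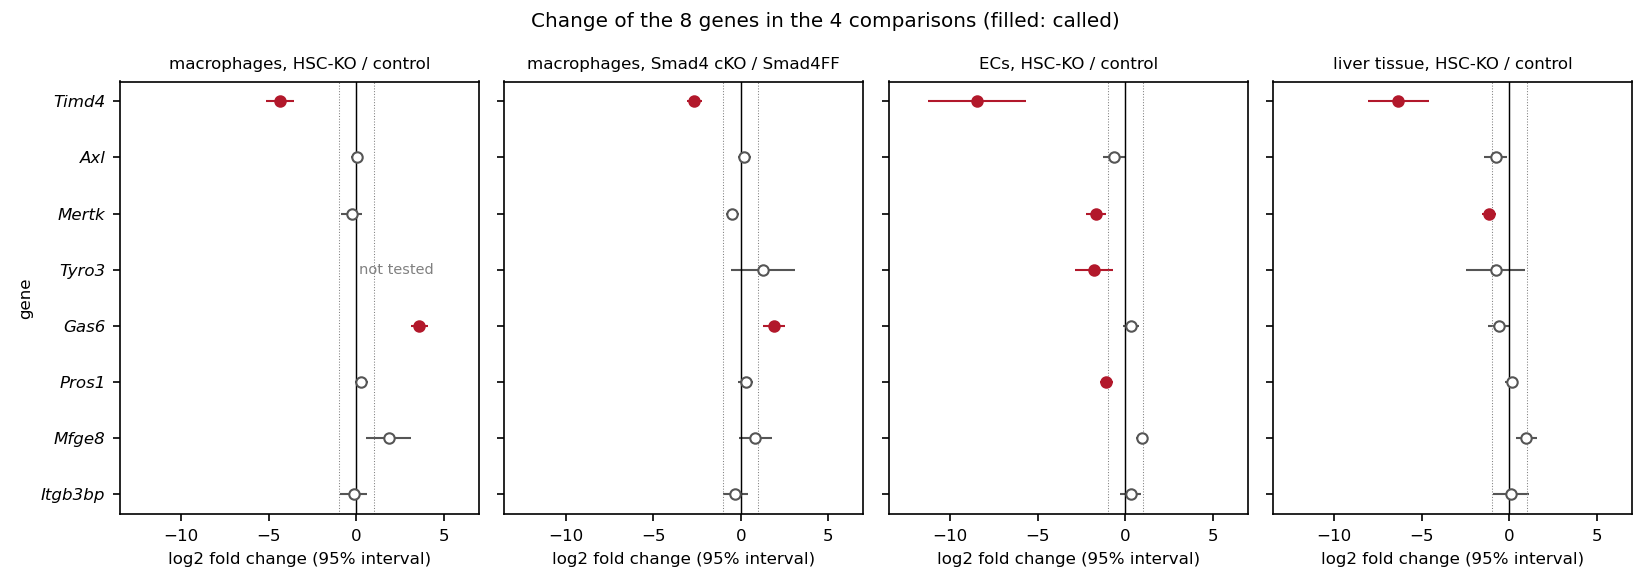
Log2 fold change of each of the 8 genes, mutant over control, with its 95% interval, 1 panel for each of the 4 comparisons (3 libraries against 3). Filled red points were called by edgeR's quasi-likelihood test, and dotted lines mark a log2 fold change of 1 in either direction. Timd4 is to the left of 0 in every panel, and Gas6 is called in the macrophage panels only. The EC value of Timd4 rests on 0 counts in the HSC-KO libraries.

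Timd4 had the widest range of the list on a log scale, although in CPM the group means of Axl spanned more (12.7 to 1477, against 0 to 712). Control macrophages had 724, 683 and 728 CPM (60697, 56510 and 40916 counts), and HSC-KO macrophages had 30.9, 20 and 48.6 CPM. The groups were far apart, and no HSC-KO library came near a control. On the log2 scale Timd4 fell by 4.36, with a standard error (SE) of 0.34, a 20.5-fold lower level, with an edgeR adjusted p of 0.00023, and stayed called without any 1 library (-4.76 to -4.09). The monocyte marker sum (7 genes) was 614 to 661 CPM in controls and 1450 to 2215 CPM in HSC-KO macrophages, and the part of a change in the kinds of macrophage in the Timd4 result was not tested. In bulk libraries, fewer cells of a type and less RNA per cell cannot be told apart.

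In the Smad4 study the Timd4 level was 542, 746 and 583 CPM in Smad4FF macrophages and 84.6, 95.5 and 117 CPM in Smad4 cKO macrophages. Every cKO library was below every Smad4FF library, yet above every HSC-KO macrophage library on the same scale. Timd4 fell by 2.65 on the log2 scale (SE 0.18, edgeR adjusted p = 0.00029), which is 6.26-fold lower. Over the same libraries the pan-macrophage marker sum was 18384 to 22670 CPM in Smad4FF and 9790 to 13431 CPM in cKO mice, and the monocyte marker sum 398 to 436 and 684 to 934 CPM. Their part in the change was not tested.

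The HSC-KO change in Timd4 was larger than the Smad4 cKO change by 1.66 on the log2 scale (SE 0.38, adjusted p = 0.04 by edgeR's interaction term, for which 2.68% of 18263 genes were called, 1.46% higher and 1.22% lower). This difference is close to the threshold. Leaving out 1 library at a time kept its size between -2.07 and -1.39 but gave adjusted p values from 0.0034 to 0.093, and 9 of the 12 fits lost the call, the exceptions being those without HSC-KO replicates 2 or 3 or Smad4FF replicate 2. The Smad4 cKO libraries kept 1289 to 1669 counts of Smad4, and the experiment and the gene deleted cannot be told apart in this difference.

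In ECs Timd4 was scarce, with 60, 24 and 44 counts (0.629, 0.331 and 0.507 CPM) in controls and 0 counts in each HSC-KO library. The level in control ECs was at least 13.5-fold higher than the floor of 3 counts per HSC-KO library (edgeR adjusted p = 0.0056). The pan-macrophage marker sum in ECs moved the same way, from 13.5 to 18.3 CPM in controls to 3.06 to 5.6 CPM in HSC-KO ECs, while the monocyte marker sum moved the other way, from 9.92 to 11.9 CPM to 73.1 to 103 CPM. Fcgr1 and Itgam of the pan-macrophage list were at 0 counts in all HSC-KO ECs. Which cells carried the genes of the monocyte list there was not tested. Of the 7 Kupffer cell markers, Clec4f, Vsig4, Marco and Fabp7 were at 0 counts in all HSC-KO ECs, and the list's sum, 705 to 801 CPM in controls and 509 to 613 CPM in HSC-KO ECs, was mostly Cdh5, the endothelial cadherin, at 503 ± 66 and 550 ± 49.5 CPM (SD, n = 3). In control ECs the pan-macrophage sum was 0.0749% to 0.102% of its mean in control macrophages, and the same percentages of the macrophage Timd4 level come to 0.533 to 0.725 CPM, against 0.331 to 0.629 CPM measured. The part of macrophages in the EC level of Timd4 and in its fall was not tested.

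In liver tissue Timd4 was at 7.28, 12.1 and 13.1 CPM in controls and 0.139, 0.233 and 0 CPM (9, 17 and 0 counts) in HSC-KO mice. The 2 groups did not overlap, and Timd4 fell by 6.34 (SE 0.75, edgeR adjusted p = 0.0062). The fold of so few counts is imprecise, and its 95% interval ran from -8.08 to -4.6. The pan-macrophage marker sum in tissue was 214 to 324 CPM in controls and 75.1 to 126 CPM in HSC-KO mice. The Kupffer cell marker sum there was 322 to 530 CPM and 55 to 83 CPM. Scaled by the pan-macrophage sums, the Timd4 levels of control and HSC-KO macrophages come to 8.47 to 12.8 CPM and 0.163 to 0.274 CPM in tissue. All scalings to tissue set sorted cells of mice aged 8 to 10 weeks against tissue of mice aged 12 weeks. The part of macrophages in the tissue fall of Timd4 was not tested.

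**Figure D2:**
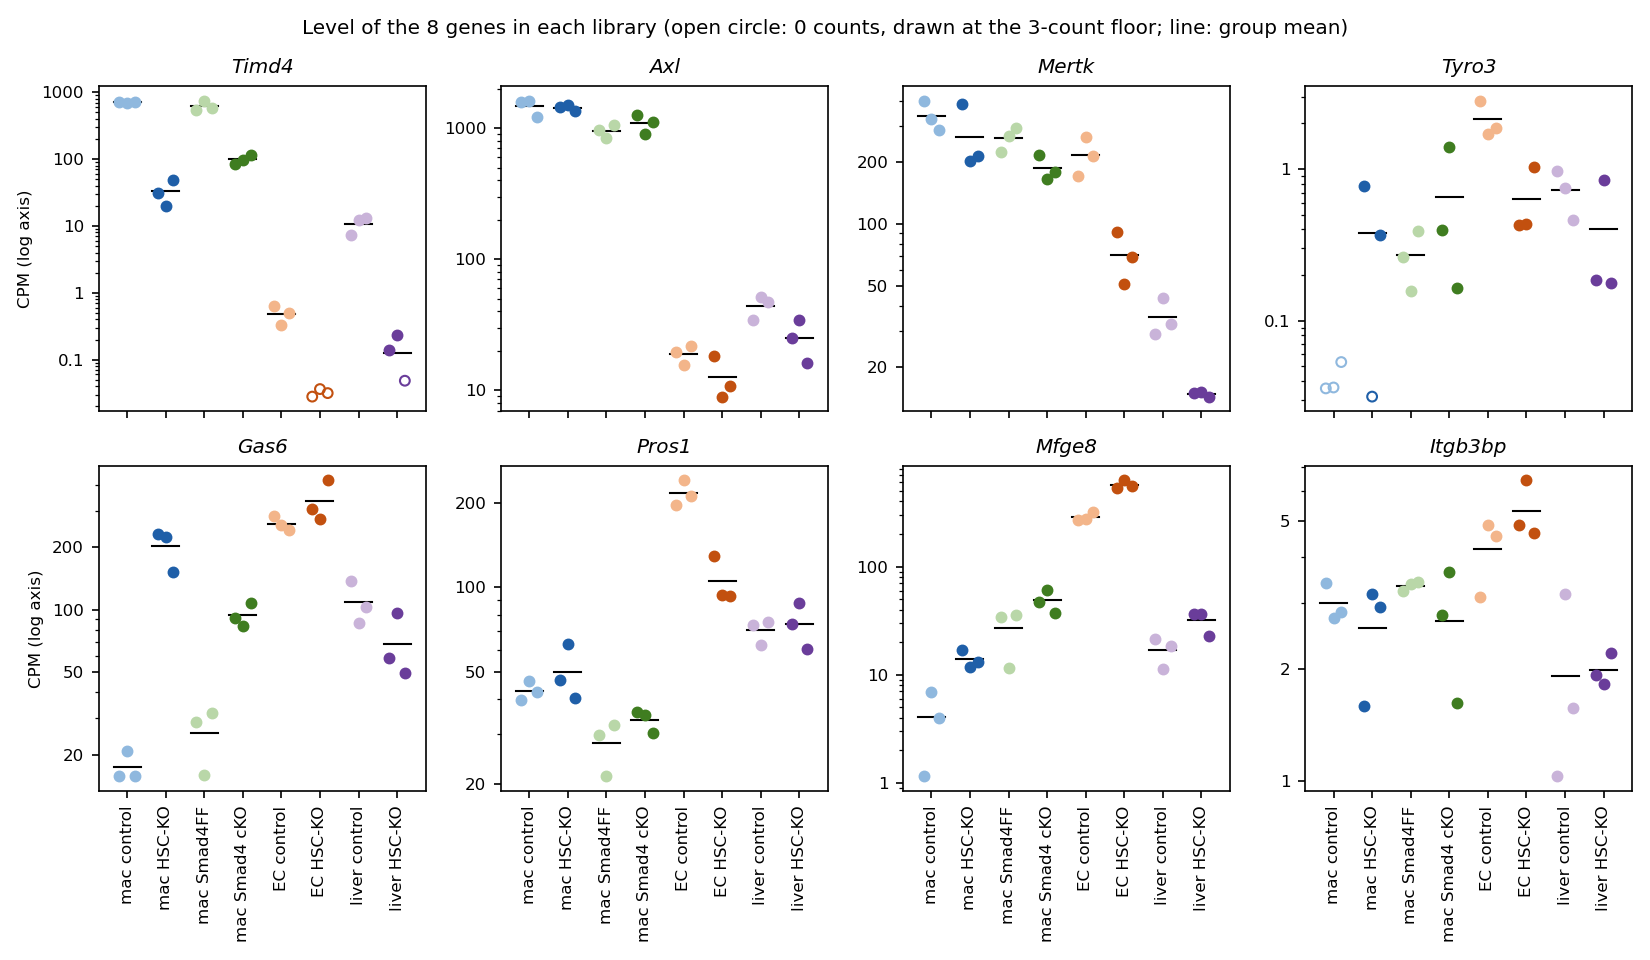
Level of each of the 8 genes in every library, in CPM on a log axis with its own range in each panel. Each point is 1 library, short lines are group means (n = 3), and open circles are libraries with 0 counts, drawn at the floor of 3 counts. Timd4 and Axl are highest in macrophages (mac), and Gas6, Pros1 and Mfge8 are highest in ECs.

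Across the groups the order of mean Timd4 level was control macrophages (712 ± 25.1 CPM, SD, n = 3), Smad4FF macrophages (624 ± 108), Smad4 cKO macrophages (99.1 ± 16.5), HSC-KO macrophages (33.2 ± 14.4), control tissue (10.8 ± 3.1), control ECs (0.489 ± 0.15), HSC-KO tissue (0.124 ± 0.117) and HSC-KO ECs at 0. Of the neighbours in this order, the control and Smad4FF macrophages overlapped in their libraries, as did the 2 lowest groups. Sort, cell type and table cannot be told apart in levels set across tables.

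Axl, the most abundant TAM receptor of these macrophages, differed by less than the spread between libraries where Timd4 fell. It had 1591, 1616 and 1223 CPM in the control and 1447, 1514 and 1347 CPM in the HSC-KO macrophages. The groups overlapped, and the log2 fold change was 0.02 with a 95% interval of -0.33 to 0.36 (edgeR adjusted p = 0.96). In the Smad4 study it had 962, 839 and 1059 CPM in Smad4FF and 1253, 905 and 1106 CPM in cKO macrophages, again overlapping, with a log2 fold change of 0.2 (interval -0.18 to 0.58, edgeR adjusted p = 0.56). A doubling of Axl lies outside both intervals.

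In ECs Axl was low, at 19.5, 15.7 and 21.7 CPM in controls and 18.4, 8.94 and 10.7 CPM in HSC-KO mice. HSC-KO replicate 1, the library with the higher sinusoidal marker sum, was the one inside the control range. Over all 6 libraries the log2 fold change was -0.62 (SE 0.28, edgeR adjusted p = 0.17), and without that library it was -0.97 (SE 0.21, edgeR adjusted p = 0.018), still short of the fold threshold. Liver tissue had 34.2, 51.9 and 46.8 CPM in controls and 25.2, 34.1 and 16.2 CPM in HSC-KO mice, a log2 fold change of -0.77 that did not pass (SE 0.28, edgeR adjusted p = 0.29). Pan-macrophage marker sums, scaled as for Timd4, come to 47.6% to 51.3% of the Axl in control tissue and 34.8% to 43.6% of that in HSC-KO tissue.

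Mertk, the TAM receptor best known for engulfment by macrophages, was measured in both sorted cell types of control mice, at 338 ± 56.5 CPM (SD, n = 3) in macrophages and 217 ± 46.9 in ECs, and was called lower in ECs and tissue but not in sorted macrophages. Control macrophages had 399, 326 and 288 CPM and HSC-KO macrophages 383, 203 and 215 CPM. HSC-KO replicate 1 was within the control range and the other two were below it, and the log2 fold change was -0.28 (interval -0.89 to 0.33, edgeR adjusted p = 0.5). Smad4FF macrophages had 224, 269 and 294 CPM and Smad4 cKO macrophages 217, 165 and 179 CPM. These groups did not overlap, as for 29.4% of all genes tested, and the log2 fold change of -0.48 (SE 0.16) did not pass (edgeR adjusted p = 0.12).

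In ECs Mertk had 172, 265 and 215 CPM in controls and 91.2, 50.9 and 69.1 CPM in HSC-KO mice. All HSC-KO libraries were below all controls, and Mertk fell by 1.66 on the log2 scale (SE 0.25), or 3.15-fold (edgeR adjusted p = 0.0035). The call held without any 1 library, and without HSC-KO replicate 1 the change was -1.88. Pan-macrophage marker sums scale to 0.0639% to 0.2% of the Mertk measured in EC libraries. The sinusoidal marker sum was lower in the same HSC-KO libraries, and its part in the EC changes of Mertk, Tyro3, Pros1 and Mfge8 was not tested. The HSC-KO change in macrophages exceeded that in ECs by 1.38 (SE 0.41, adjusted p = 0.044 by edgeR's interaction term, for which 12.3% of 18325 genes were called, 6.29% higher and 5.96% lower). This call was lost in 7 of 12 fits that left out 1 library (adjusted p 0.029 to 0.1), those without control macrophage replicates 2 or 3, HSC-KO macrophage replicate 1, control EC replicates 2 or 3, or HSC-KO EC replicates 2 or 3. It was also lost with library size alone (1.15, adjusted p = 0.074) and with all genes of at least 1 count (1.38, adjusted p = 0.054).

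In liver tissue Mertk had 29.1, 43.5 and 32.7 CPM in controls and 15, 15.2 and 14.4 CPM in HSC-KO mice. The HSC-KO libraries were close together and below every control. Mertk fell by 1.19 on the log2 scale (SE 0.17, edgeR adjusted p = 0.014), 2.28-fold. The call was lost in 4 of the 6 fits without 1 library (control replicates 2 and 3, HSC-KO replicates 1 and 2), over which the change ran from -1.31 to -0.98 and the adjusted p from 0.017 to 0.072. The level scaled from macrophages by pan-macrophage markers is 13.8% to 15.6% of the Mertk in control tissue and 9.12% to 14.5% of that in HSC-KO tissue. The sinusoidal marker sum in tissue was 439 to 524 CPM in controls and 22.4 to 27.2 CPM in HSC-KO mice, and its part in the Mertk change was not tested.

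Tyro3, the third TAM receptor, was at the edge of detection. Control macrophages had 0 counts in each library, where a count of 0 allows up to 0.0358, 0.0363 and 0.0534 CPM, and HSC-KO macrophages had 69, 0 and 35 counts, so it was not tested there in the main fit. DESeq2 and a fit over all 12 macrophage libraries did test Tyro3 in this comparison and called it, from these same counts. Smad4FF macrophages had 26, 14 and 41 counts and Smad4 cKO macrophages 39, 163 and 14, overlapping groups with a log2 fold change of 1.27 (SE 0.79, edgeR adjusted p = 0.43). Control ECs held more, 269, 124 and 162 counts (2.82, 1.71 and 1.86 CPM), and HSC-KO ECs held 46, 36 and 98 counts (0.43, 0.436 and 1.03 CPM).

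Tyro3 fell by 1.77 on the log2 scale in HSC-KO ECs (SE 0.47, edgeR adjusted p = 0.034), with no overlap between groups. At these counts the call was not stable, since 5 of the 6 fits without 1 library lost it, with adjusted p values up to 0.11, and the kept one was without HSC-KO replicate 3. Tissue had 87, 49 and 35 counts in controls and 12, 62 and 11 in HSC-KO mice, which overlapped. Of the 2 interaction terms, the one between macrophages and ECs was called for Tyro3, but control macrophages were at 0 counts, so its fitted size depends on the prior count and is not a measure of the difference.

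Expressed per length of exon (RPKM, the CPM divided by exon length in kilobases), the make-up of TAM receptor RNA differed between the cell types. Axl made up 79% ± 1.83 (SD, n = 3) of the summed RPKM of the 3 receptors in control macrophages and Mertk 21% ± 1.83, whereas in control ECs Mertk made up 92.1% ± 2.36 and Axl 7.22% ± 2.1. The mutants kept these leaders. Axl was 82.5% ± 5.3 in HSC-KO and 83.3% ± 0.86 in Smad4 cKO macrophages, against 75.7% ± 2.93 in Smad4FF, and Mertk was 86.3% ± 1.24 in HSC-KO ECs. Whole tissue lay between, with 51.7% ± 2.86 Axl in controls and 57.6% ± 8.04 in HSC-KO mice. These shares were not tested.

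**Figure D3:**
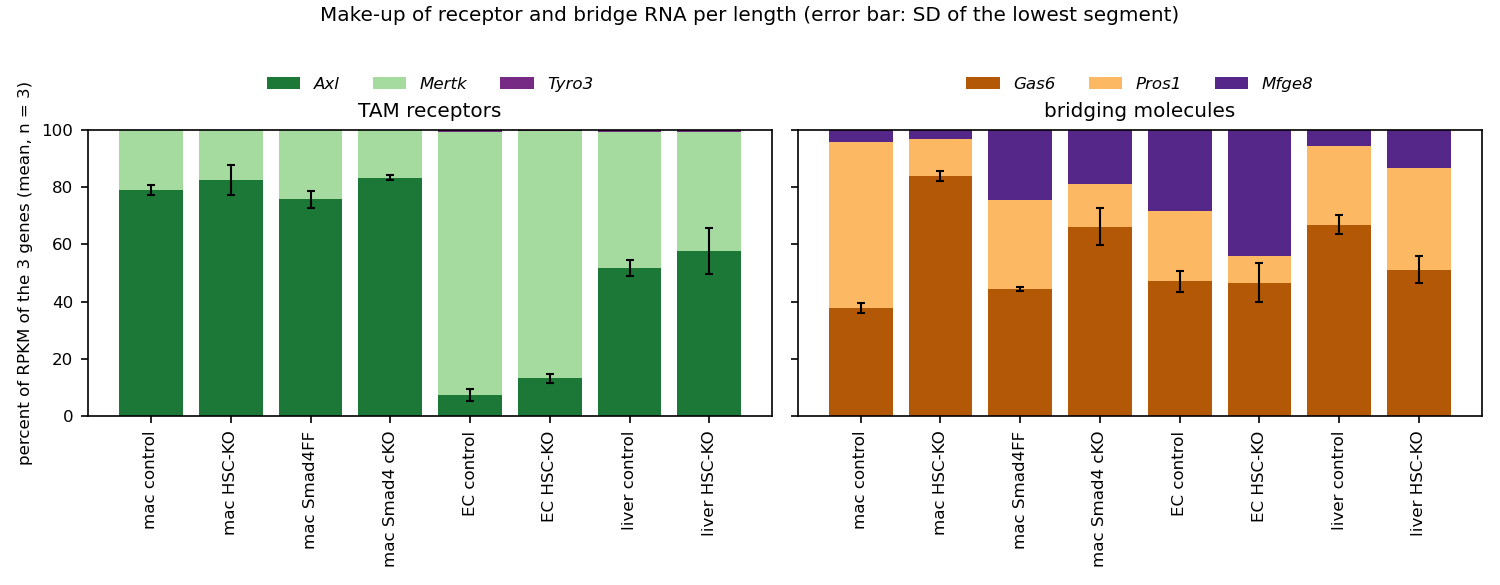
Make-up of the RNA of the 3 TAM receptors (left) and the 3 bridging molecules (right) in each group, as percent of their summed RPKM, means of 3 libraries. Error bars are the SD of the lowest segment. Axl leads in macrophages (mac) and Mertk in ECs, and the Gas6 segment is 37.6% in control macrophages and 83.8% in HSC-KO macrophages.

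Gas6, the bridge that all of the TAM receptors bind, rose in macrophages of both mutants. Control macrophages had 15.7, 20.9 and 15.8 CPM and HSC-KO macrophages 232, 223 and 151 CPM. The lowest HSC-KO library was above every control. Gas6 was 12-fold higher, a log2 fold change of 3.58 (SE 0.21, edgeR adjusted p = 6.8e-05), and stayed between 3.47 and 3.74 without any 1 library.

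Smad4FF macrophages had 28.7, 16 and 31.8 CPM of Gas6 and Smad4 cKO macrophages 90.6, 83.4 and 107 CPM. Every cKO library was above every Smad4FF library and below every HSC-KO macrophage library. The log2 fold change was 1.88 (SE 0.26, edgeR adjusted p = 0.0057), 3.68-fold. Without Smad4FF replicate 2, which had both the lowest Gas6 and the lowest endothelial marker sum, it was 1.62 (SE 0.16). Beside both Gas6 changes the monocyte marker sum was higher in the mutants, as given for Timd4. The sum of 10 hepatocyte markers was 3443 to 4662 CPM in control and 4765 to 5888 CPM in HSC-KO macrophages, and 1512 to 1845 CPM in Smad4FF and 2913 to 5314 CPM in Smad4 cKO macrophages. Of the smaller sums, in HSC-KO macrophages those of lymphocyte (12.9 to 24.5 against 41 to 136 CPM) and dendritic cell markers (6.96 to 11.2 against 16.8 to 32.4 CPM) were higher. In Smad4 cKO macrophages the cholangiocyte sum was higher (4.32 to 5.49 against 10.1 to 22.3 CPM), and the dendritic cell and stellate sums were lower. The part of these cells in the Gas6 changes was not tested.

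ECs carry Gas6 at a high level, so the endothelial marker sum of each macrophage library was set beside its Gas6. The sum was divided by its mean in ECs and multiplied by the EC level of Gas6, with control ECs for control and Smad4 libraries and HSC-KO ECs for HSC-KO libraries. The result is 0.941 to 5.34 CPM in control and 1.34 to 2.97 CPM in HSC-KO macrophages, or 0.601% to 1.96% of the Gas6 measured in the latter. In Smad4FF macrophages it is 8.96 to 31.6 CPM, or 56.1% to 110% of the Gas6 measured, and in Smad4 cKO macrophages 24.1 to 33 CPM, or 22.4% to 39.5%. In control macrophages it is 6% to 25.5%. With the 7 sinusoidal markers the percentages were higher, at 29.5% to 54.9% in control, 110% to 152% in Smad4FF and 29.9% to 52.7% in Smad4 cKO macrophages. That list includes the Fc receptor gene Fcgr2b, and expression of its genes by macrophages themselves was not set apart. In HSC-KO macrophages, with HSC-KO ECs as the reference, they were 17.9% to 63.4%, but the sinusoidal sum of that reference differs widely between its libraries, and the same scaling gives 581% to 1270% of the Mfge8 measured.

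The Gas6 change was larger in HSC-KO than in Smad4 cKO macrophages by 1.74 on the log2 scale (SE 0.35, adjusted p = 0.022 by edgeR's interaction term). The Smad4FF level is the reference of the Smad4 cKO change in that difference, and 6 of 12 fits without 1 library lost the call (adjusted p 0.0065 to 0.076), those without control replicate 3, HSC-KO replicates 1 or 2, Smad4FF replicates 1 or 3, or Smad4 cKO replicate 1. ECs had 281, 255 and 241 CPM in controls and 306, 272 and 419 CPM in HSC-KO mice, overlapping groups with a log2 fold change of 0.34 (interval -0.11 to 0.78, edgeR adjusted p = 0.27). The change in macrophages exceeded that in ECs by 3.26 (SE 0.3, adjusted p = 5.2e-05 by edgeR's interaction term), which held in all 12 fits without 1 library. Liver tissue had 137, 86.1 and 103 CPM in controls and 58.7, 96.4 and 49.6 CPM in HSC-KO mice, and this overlap gave a log2 fold change of -0.61 (SE 0.27, edgeR adjusted p = 0.4). Exons of Gas6 and the opposite-strand gene Tmem255b share 34 bases, 1.33% of its exon length, and whether counting used the strand is not given in the sources used here.

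Pros1, the gene of protein S, was not called in macrophages and fell in ECs. Control macrophages had 39.8, 46.6 and 42.4 CPM and HSC-KO macrophages 46.8, 62.9 and 40.3 CPM, overlapping, with a log2 fold change of 0.27 (interval -0.11 to 0.65, edgeR adjusted p = 0.3). Smad4FF had 29.9, 21.3 and 32.3 CPM and Smad4 cKO 36, 35.3 and 30.3 CPM, with a log2 fold change of 0.29 (interval -0.14 to 0.71, edgeR adjusted p = 0.44). Scaled from ECs by endothelial markers, as for Gas6, Pros1 comes to 1.97% to 9.57% of that measured in control macrophages and 0.674% to 2.33% in HSC-KO, but 35.1% to 88.2% in Smad4FF and 66.4% to 78% in Smad4 cKO macrophages. By sinusoidal markers the percentages are 9.69% to 17.1%, 20.1% to 75.3%, 69.1% to 121% and 84.6% to 104% in the same order. Control ECs had 197, 240 and 211 CPM and HSC-KO ECs 129, 94 and 93 CPM of Pros1.

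No HSC-KO EC library reached a control, and Pros1 fell by 1.07 on the log2 scale (SE 0.17, edgeR adjusted p = 0.0043), 2.1-fold. The change is close to the fold threshold: without 1 library it ran from -1.23 to -0.99, and without control replicate 2 or HSC-KO replicates 2 or 3 it was not called although its adjusted p stayed at or below 0.025. With library size alone it was -0.78 and not called. The macrophage change exceeded the EC change by 1.35 (SE 0.25, adjusted p = 0.0041 by edgeR's interaction term) and did so in all 12 fits without 1 library. Tissue had 73.4, 62.6 and 75.5 CPM in controls and 73.9, 88.3 and 60.3 CPM in HSC-KO mice, a log2 fold change of 0.13 (interval -0.25 to 0.5, edgeR adjusted p = 0.84).

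Mfge8, whose product links phosphatidylserine to integrins, was mainly an EC transcript. ECs had 268, 277 and 321 CPM in controls and 536, 625 and 555 CPM in HSC-KO mice. The groups did not overlap, as for 40.4% of all genes tested, and the log2 fold change was 0.96 (SE 0.15, edgeR adjusted p = 0.0047), 1.95-fold higher and short of the fold threshold. It passed that threshold without HSC-KO replicate 1 (1.01) and without control replicate 3 (1.05).

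In macrophages Mfge8 was low, and in controls it was close to the level that the endothelial marker sum gives. Control macrophages had 1.15, 6.98 and 4.02 CPM, and the level scaled from ECs by endothelial markers was 1.05, 5.95 and 3.99 CPM, or 85.4% to 99.3% of that measured. HSC-KO macrophages had 17, 11.8 and 13 CPM, and the scaled level was 2.98, 2.3 and 5.1 CPM, or 17.5% to 39.4%. All HSC-KO libraries were above the controls (40.3% of all genes tested had groups that did not overlap). The log2 fold change of 1.85 (SE 0.55) did not pass (edgeR adjusted p = 0.055), and it was called without control replicate 1 (1.4) or control replicate 2 (2.5), the libraries with the lowest and highest endothelial marker sums of the controls.

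Smad4FF macrophages had 34.3, 11.5 and 35.9 CPM of Mfge8, with scaled levels of 35.3, 10 and 34.4 CPM. Smad4 cKO macrophages had 47.5, 60.6 and 37.6 CPM, with scaled levels of 35, 36.8 and 26.8 CPM, or 60.7% to 73.6%. The groups did not overlap and the log2 fold change was 0.84 (SE 0.41, edgeR adjusted p = 0.3), and 0.45 without Smad4FF replicate 2. With sinusoidal markers in place of the endothelial list, the scaled level was 151% to 450% of the Mfge8 measured in control macrophages, so the 2 lists give different shares. Liver tissue had 21.3, 11.4 and 18.3 CPM in controls and 36.8, 36.5 and 22.8 CPM in HSC-KO mice, with no overlap (19.7% of all genes tested) and a log2 fold change of 0.97 that did not pass (SE 0.26, edgeR adjusted p = 0.13).

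**Figure D4:**
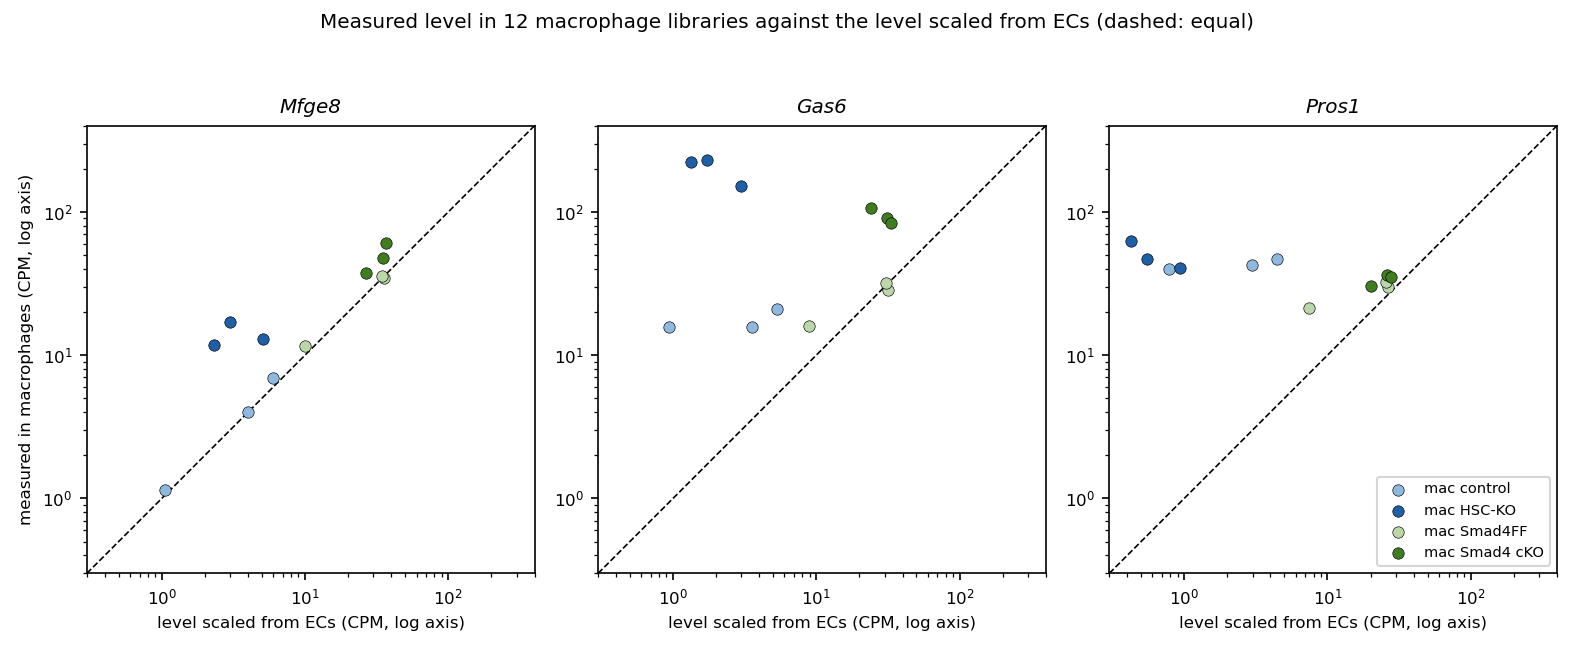
Measured level of Mfge8, Gas6 and Pros1 in the 12 macrophage libraries (vertical, CPM, log axis) against the level scaled from ECs by the endothelial marker sum (horizontal, CPM, log axis). The dashed line marks equal values. Control and Smad4FF libraries lie close to the line for Mfge8, and HSC-KO libraries lie above it for all 3 genes. In HSC-KO macrophages the scaled level is 0.601% to 1.96% of the measured Gas6 (151 to 232 CPM) and 0.674% to 2.33% of the measured Pros1.

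Of the bridge RNA per length in macrophages, Gas6 made up 37.6% ± 1.72 (SD, n = 3) in controls and 83.8% ± 1.78 in HSC-KO mice, while Pros1 made up 58% ± 3.42 and 13% ± 1.99. In the Smad4 study Gas6 made up 44.3% ± 0.768 in Smad4FF and 66.2% ± 6.5 in cKO macrophages. In ECs the Gas6 share was 47% ± 3.68 in controls and 46.6% ± 6.73 in HSC-KO mice, while the Pros1 share was 24.5% ± 2.34 and 9.34% ± 2.25 and the Mfge8 share 28.5% ± 2.98 and 44.1% ± 6.05. The shares were not tested.

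Itgb3bp, the centromere protein gene on the list, was low everywhere, with group means from 1.92 to 5.31 CPM, and every pair of neighbouring groups overlapped. Its log2 fold changes were -0.16, -0.31, 0.31 and 0.09 in HSC-KO macrophages, Smad4 cKO macrophages, ECs and tissue, with edgeR adjusted p values from 0.45 to 0.97. Each 95% interval reached 0.91 or more in size on at least 1 side (-0.93 to 0.6 in HSC-KO macrophages, -0.93 to 1.12 in tissue), so a change of moderate size was not excluded. Exons of Itgb3bp and the opposite-strand gene Pgm1 share 398 bases, 8.59% of its exon length.

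Control macrophages and control ECs were compared directly, with 36% of 16263 genes called (18% higher and 18% lower in macrophages). Of the 8 list genes 6 were called, 2 higher in macrophages and 4 higher in ECs. Timd4 was higher in macrophages by 10.43 on the log2 scale (SE 0.31) and Axl by 6.21 (SE 0.24). Gas6 was lower in macrophages, by -3.95 (SE 0.18), as were Pros1 at -2.4 (SE 0.15) and Mfge8 at -6.22 (SE 0.68), with edgeR adjusted p values of 0.0003 or less. Tyro3, at 0 counts in macrophages, was at least 39.9-fold higher in ECs than the floor of 3 counts per macrophage library.

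Mertk and Itgb3bp were not called between the 2 cell types. Mertk had a log2 fold change of 0.56 in favour of macrophages (interval 0.07 to 1.06, edgeR adjusted p = 0.061), with libraries that did not overlap (62.4% of all genes tested). Itgb3bp had one of -0.55 (interval -1.19 to 0.08, edgeR adjusted p = 0.13). Cell type, sort and table cannot be told apart in this comparison. Per length, the most abundant of the 8 in control macrophages was Timd4 (328 RPKM), followed by Axl (293 RPKM) and Mertk (77.9 RPKM), and in control ECs it was Gas6 (102 RPKM), followed by Mfge8 (61.4 RPKM), Pros1 (52.9 RPKM) and Mertk (50.1 RPKM). This order depends on the exon length, which pools the exons of all annotated transcripts of a gene. By mean CPM, Axl (1477) was above Timd4 (712) in control macrophages, and Mfge8 (288) above Gas6 (259) in control ECs.

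The remaining genes can be ordered by mean level in the same way as Timd4. For Axl the macrophage groups led, from 1477 ± 220 CPM (SD, n = 3) in controls to 953 ± 110 in Smad4FF, followed by control tissue at 44.3 ± 9.1, HSC-KO tissue at 25.2 ± 8.95, control ECs at 19 ± 3.03 and HSC-KO ECs at 12.7 ± 5.02. Within the macrophage groups, control overlapped HSC-KO and Smad4 cKO overlapped Smad4FF. For Mertk the 4 macrophage groups and control ECs formed 1 chain of overlapping neighbours, from 338 ± 56.5 CPM in control to 187 ± 26.9 CPM in Smad4 cKO macrophages, and HSC-KO ECs stood below it at 70.4 ± 20.2.

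For Gas6 the EC groups led (332 ± 77.3 CPM in HSC-KO and 259 ± 20.4 CPM in control ECs) and overlapped, and HSC-KO macrophages came next at 202 ± 44.1 CPM with no overlap. Control macrophages were lowest, at 17.5 ± 2.98 CPM, and overlapped Smad4FF. For Pros1 control ECs (216 ± 22 CPM) and HSC-KO ECs (105 ± 20.2 CPM) stood apart from each other and from the tissue and macrophage groups below. For Mfge8 HSC-KO ECs (572 ± 46.6 CPM) and control ECs (288 ± 28.6 CPM) stood apart, and Smad4 cKO macrophages were the highest of the rest at 48.6 ± 11.5 CPM.

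Other genes that bind, engulf or digest dying cells were taken as 8 lists. Among 14 other phosphatidylserine receptors, 11 were tested in HSC-KO macrophages, where 2 were called higher and 3 lower (6.32% and 5.34% of all genes tested) and 6 were not called (median log2 fold change -0.84, against 0.04 over all genes tested). Stab1, a large scavenger receptor of sinusoidal cells, was at 62.7 ± 15.5 CPM (SD, n = 3) without and 895 ± 235 CPM with the HSC deletion in macrophages, a log2 fold change of 3.89, and Havcr2, which encodes TIM3, rose by 3.22. Stab2, the relative of Stab1, fell by 2.99, and Cd300lb and Cd300lf, immune receptors for lipids, fell by 2.06 and 1.17. Cd36, a receptor for oxidised lipids, had a log2 fold change of -0.24 (edgeR adjusted p = 0.63). The sinusoidal marker sum, which includes Stab2, was 3241 to 6609 CPM in control and 2046 to 4918 CPM in HSC-KO macrophages, and its part in these changes was not tested.

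In Smad4 cKO macrophages 2 of 11 such receptors were called, both higher (5.43% of all genes tested, 2.76% higher). These were Havcr2 (3.02) and Stab1 (2.37, SE 0.38, edgeR adjusted p = 0.01), while Stab2 had a log2 fold change of -0.33 (SE 0.26, edgeR adjusted p = 0.53) and Cd36 one of -1.09 (SE 0.37, edgeR adjusted p = 0.14). The difference between the HSC-KO and the Smad4 cKO change of Stab2 was -2.62 (SE 0.4, adjusted p = 0.0057 by edgeR's interaction term). The sinusoidal marker sum, which includes Stab2, was 12387 to 30537 CPM in Smad4FF and 22480 to 30864 CPM in Smad4 cKO macrophages, above every macrophage library of the HSC-KO study, and its part in the difference was not tested. The Stab1 changes, 3.89 and 2.37, were not shown to differ (1.56, SE 0.49, edgeR adjusted p = 0.12).

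In HSC-KO ECs 1 of 7 receptors tested was called (13.7% of all genes tested). Stab1 fell by 2.67 (SE 0.31, edgeR adjusted p = 0.0012), while Stab2 had a log2 fold change of -2.58 (SE 0.84, edgeR adjusted p = 0.071) with HSC-KO levels between 86.3 and 838 CPM, and Cd36 one of 0.1. The macrophage and EC changes of Stab1 differed by 6.57 (SE 0.47, adjusted p = 1.2e-05 by edgeR's interaction term). In tissue Stab1 fell by 1.21 and Stab2 by 3.3, 2 of 11 receptors (2.48% of all genes tested), and Cd36 was at -0.34. The sinusoidal marker sum, which includes Stab2, fell in HSC-KO ECs (least in replicate 1) and in tissue, as given above. Its part in these EC and tissue changes was not tested.

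Of 12 other bridges and opsonins, 8 were tested in HSC-KO macrophages and 2 called (11.7% of all genes tested). Thbs1 (thrombospondin 1) rose by 2.88 at 3.46 CPM or less and Lgals3 (galectin 3) fell by 1.13, a call lost in 6 of 14 alternatives. The C1q genes, whose products coat dying cells, had log2 fold changes of -0.03 (C1qa), -0.22 (C1qb) and -0.35 (C1qc) there and were not called. In Smad4 cKO macrophages 0 of 9 were called by edgeR (5.43% of all genes tested) and 1 by DESeq2, and 2 had an unadjusted p below 0.05, with C1qa at -0.15, C1qb at -0.32 and C1qc at -0.34. In ECs 5 of 9 were called (13.7% of all genes tested): Thbs1 rose by 2.78 (lost in 2 of 12 alternatives), and C1qb, C1qa, C1qc and Lgals3 fell by 4.03, 3.58, 3.09 and 2.7. The C1q genes and Lgals3 had means of 1.75 to 22.7 CPM in control ECs and of 1400 to 7280 CPM in control macrophages, and the pan-macrophage marker sum in ECs moved with them. In tissue C1qc fell by 1.41, C1qa by 1.25 and C1qb by 1.22, 3 of 8 tested (2.48% of all genes tested), beside the lower pan-macrophage marker sum given above.

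Of the 3 integrin partners of MFG-E8, 2 were called in ECs (13.7% of all genes tested). Itgb5 rose by 4.47 (SE 0.52, edgeR adjusted p = 0.0012), from 1.81 ± 0.327 to 40.8 ± 22.8 CPM (SD, n = 3), and Itgb3 fell by 3.79 (SE 0.4, edgeR adjusted p = 0.0008), from 18.8 ± 8.92 to 1.38 ± 0.475 CPM, while Itgav was at -0.15. Itgb5 was lowest in HSC-KO replicate 1 (14.6 CPM). In HSC-KO macrophages Itgav, Itgb3 and Itgb5 had log2 fold changes of 0.22, 1.89 and 0.63, in Smad4 cKO macrophages -0.48, -0.18 and 0.52, and in tissue 0.03, 0.54 and -0.02. Of these, Itgb5 in HSC-KO macrophages had an edgeR adjusted p of 0.016 and missed the fold threshold. The macrophage and EC changes differed by -3.83 (SE 0.55, adjusted p = 0.00095) for Itgb5 and 5.7 (SE 1.02, adjusted p = 0.0035) for Itgb3, by edgeR's interaction term.

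Of 13 engulfment genes tested, 2 were called in HSC-KO macrophages (11.7% of all genes tested there) and 0 (5.43% of all) in Smad4 cKO macrophages by edgeR or DESeq2, where 5 had an unadjusted p below 0.05. In HSC-KO macrophages Vav3 rose by 1.9 and Ptk2, which encodes focal adhesion kinase, fell by 2.62. Of 15 phagosome genes, Nr1h3, the gene of the sterol-sensing receptor LXR alpha, fell by 4.29 in HSC-KO and 3.4 in Smad4 cKO macrophages, and Slc29a3 rose by 1.69 in the former. No other phagosome gene was called in either (11.7% and 5.43% of all genes tested). Ano6, a lipid scramblase and the only gene called of the 8 for eat-me and do-not-eat-me signals, fell by 1.45 and 1.3. Among 10 genes of TAM receptor shedding and signalling, Adam10, which encodes a sheddase, fell by 1.37 and 1.13 (the latter lost in 1 of 13 alternatives), and Socs3 and Ifnar1 rose by 1.25 and 1.23 in HSC-KO macrophages. No other of these 10 was called in either. In Smad4 cKO macrophages Socs3 had a log2 fold change of 1.53 (SE 0.4, edgeR adjusted p = 0.066) and Ifnar1 one of 0.02. There Vav3, Ptk2 and Slc29a3 were at 0.91, -0.56 and 0.61 (edgeR adjusted p = 0.08, 0.2 and 0.08). None of the 3 vitamin K enzymes for Gas6 and protein S was called by edgeR or DESeq2 in any of the 4 comparisons. Of all genes tested, edgeR called 11.7%, 5.43%, 13.7% and 2.48% in HSC-KO macrophages, Smad4 cKO macrophages, ECs and tissue. Of these enzymes 1 had an unadjusted p below 0.05, in ECs.

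In ECs 4 of 13 engulfment genes were called (13.7% of all genes tested). Elmo1, an adaptor that turns on Rac, rose from 0.173 ± 0.163 to 29.5 ± 9 CPM (SD, n = 3), and Gulp1 rose by 3.21. Rac2 and Vav1, genes of blood cells, were lower at 1.52 CPM or less in every library, and their calls were lost in 9 of 13 and 7 of 12 alternatives. Of the phagosome genes Abca1 and Abcg1, cholesterol exporters, rose by 2.17 and 1.09 (the latter lost in 2 of 13 alternatives) and Nr1h3 by 2.11. Of the genes of eat-me and do-not-eat-me signals Ano6 rose by 1.98, and Sirpa, the phagocyte's receptor for CD47, and Calr, which encodes calreticulin, fell by 3.43 and 1.27, the last lost in 1 of 13 alternatives. Plcg2 rose by 1.84, and Socs1 fell by 1.07, a call lost in 8 of 13 alternatives. In tissue Rac2 fell by 1.49 and Ucp2 by 1.07, the only others called from these lists there. Every tissue call in these lists but that of Stab2 was lost in 3 or more of 12 alternatives.

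**Figure D5:**
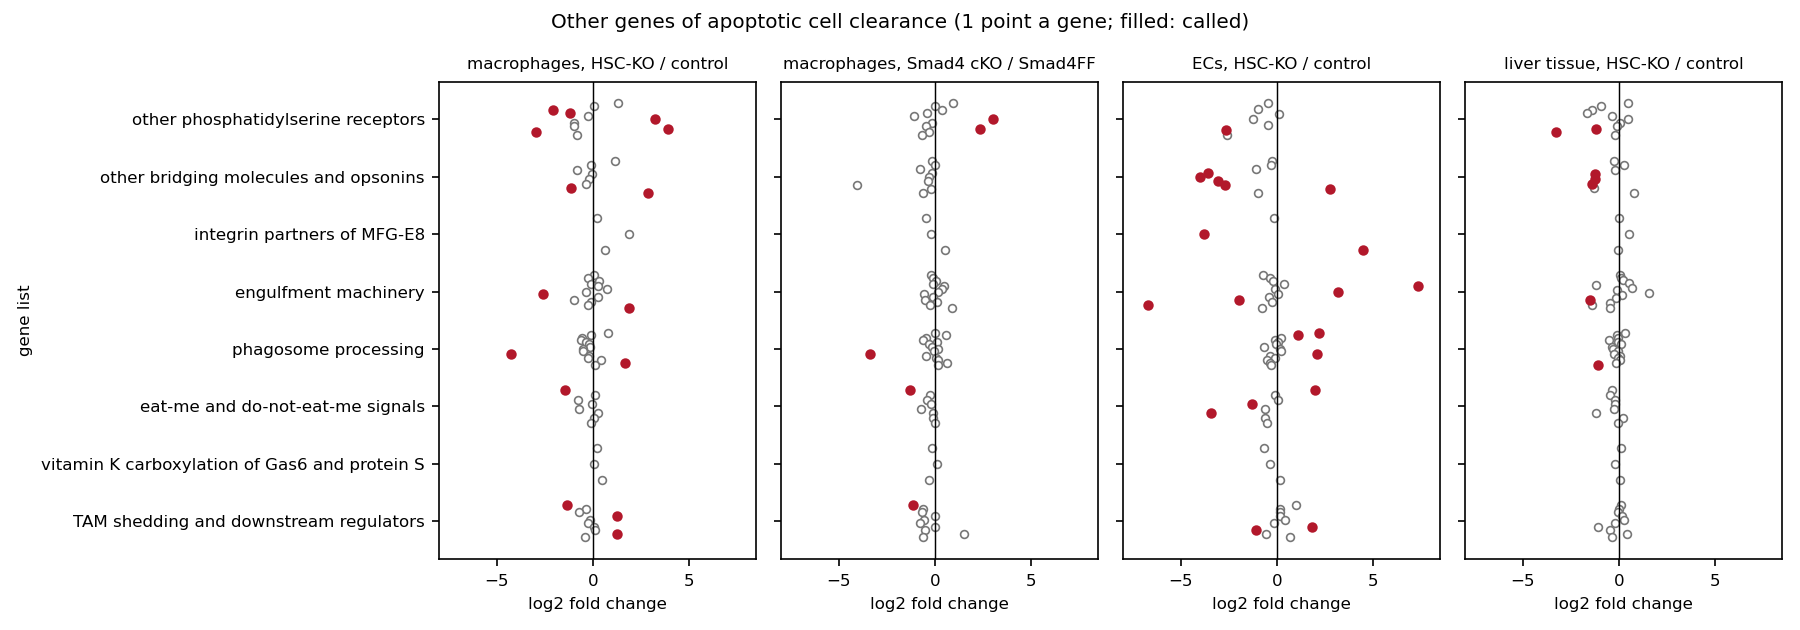
Log2 fold change of the other genes of apoptotic cell clearance that were tested, 1 point a gene, by list (vertical) and comparison (panels). Filled red points were called by edgeR's quasi-likelihood test, and vertical lines mark 0. Points are filled on both sides of 0 in the macrophage and EC panels, and Stab1 is at 3.89 in HSC-KO macrophages and -2.67 in ECs.

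As a description of pattern, the gene most like each list gene was sought by Pearson's r of log2 CPM over the 24 libraries, among 8277 genes. These libraries share cell types, and each r mixes differences between tables with those within them. Timd4 was most like Folr2 (r = 0.974), Cfp (0.971) and Vsig4 (0.97), Axl like Plek (0.993) and Ctss (0.991), and Mertk like Acer3 (0.984), Plekha2 (0.976) and Fam78a (0.976). Gas6 was most like Rhbdf1 (0.958), Zmiz1 (0.947) and Rap2a (0.929), Pros1 like Lace1 (0.96), Rnf185 (0.946) and Tango6 (0.942), and Mfge8 like Rapgef3 (0.98), Sh2d3c (0.977) and Hdac7 (0.976). Tyro3 and Itgb3bp, with few counts, reached only 0.792 (Sorbs3) and 0.828 (Rchy1).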

How the data were processed

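RNA-seq counts were analysed for 24 mouse libraries (3 per group, stated to be independent biological replicates). After FastQC the authors aligned reads to mm10 (GRCm38) with HISAT2, obtained raw counts by featureCounts and deposited them in 4 tables. DESeq2 is named for their own comparisons. Versions, annotation and strand setting are not given in the sources used here. Floors and intervals cover counting error and the spread between libraries only.

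Each table was fitted with edgeR 4.0.16 (R 4.3.3; glmQLFit and glmQLFTest) after filterByExpr (minimum count 10) and TMM scaling, with Benjamini-Hochberg adjustment over all genes tested. CPM used TMM over all 24 libraries, and RPKM the GENCODE vM21 exon length. In fits across tables, entries sharing a symbol (483 of 48820) were summed. The fits were tested on simulated data. Alternatives were DESeq2 1.42.0, other scalings and filters, replicate and mouse blocks (limma 3.58.1), Xist as a covariate, a fit over 12 macrophage libraries, and leaving out each library.

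The genes and lists were chosen with earlier results of these data known. All 8 genes are described throughout. From each other list up to 4 called genes with the largest change are named, besides Stab1, Stab2, Cd36, C1qa, C1qb, C1qc, Itgav, Itgb3 and Itgb5. Cd300lf, and Lgals3 in ECs, were added after their values were seen, to complete a count. A gene among those most like Axl is not reported here.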

Additional observations from a re-analysis of the deposited data

Results flagged for a closer look

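Some genes changed differently between mutants or cell types by edgeR's interaction term. Between the HSC-KO and the Smad4 cKO change in macrophages, Timd4 differed by -1.66 (SE 0.38, adjusted p = 0.04) and Gas6 by 1.74 (SE 0.35, adjusted p = 0.022). These calls were lost in 9 and 6 of 12 fits without 1 library, and that of Timd4 also with the replicate block (adjusted p = 0.052). Between the HSC-KO change in macrophages and that in ECs, Gas6 differed by 3.26 (SE 0.3, adjusted p = 5.2e-05), Pros1 by 1.35 (SE 0.25, adjusted p = 0.0041) and Mertk by 1.38 (SE 0.41, adjusted p = 0.044). The Mertk call was lost with library size alone (adjusted p = 0.074) and with all genes of at least 1 count (adjusted p = 0.054), as well as in 7 of 12 fits without 1 library. The Tyro3 term, 9.85 (SE 2.36, adjusted p = 0.022), rests on 0 counts in control macrophages and has no interpretable size.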

How the results depend on the processing

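With 3 libraries a group and bulk RNA, a call rests on few samples. The number of list genes called without 1 library ranged from 2 to 3 in HSC-KO macrophages, 2 to 2 in Smad4 cKO macrophages, 2 to 4 in ECs, 1 to 2 in tissue, 0 to 2 for the difference between mutants, 2 to 5 for that between cell types and 6 to 6 between control cell types. It was 4 in HSC-KO macrophages with DESeq2 and with all 12 macrophage libraries in the fit, where Mfge8 (1.84 and 1.85) and Tyro3 were gained. Tyro3 was not tested there in the main fit and had 0 counts in every control macrophage library. Mfge8 also passed with library size alone (1.95) and with 10 counts required in every library (1.86). The number was 1 in tissue when 10 counts were required in every library, where Timd4 is not tested. Values near 0 changed sign: Itgb3bp in tissue was -0.01 with library size alone, and the Pros1 difference between mutants was -0.02 with DESeq2, -0.04 with DESeq2 size factors, -0.09 with library size alone, -0.06 with all genes of at least 1 count and -0.01 with the replicate block. Without 1 library, sign changes lay within -0.11 to 0.08 for Axl and -0.33 to 0.09 for Itgb3bp in HSC-KO macrophages, -0.21 to 0.69 for Itgb3bp and -0.02 to 0.26 for Pros1 in tissue, and -0.15 to 0.15 for Pros1, -0.11 to 0.42 for Mertk and -0.07 to 0.46 for Itgb3bp between mutants. The cause was not tested.

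With library size alone, ECs lost the calls of Tyro3 (-1.47) and Pros1 (-0.78) and gained Mfge8 (1.26), which was also called there with Xist as a covariate (1.03). Same-numbered libraries did not deviate together in each pair (r from -0.23 to 0.25, against -0.3 to 0.27 for different numbers). With 3 libraries a group these values cannot settle whether the numbers pair the samples. With the number as a replicate block, 3 list genes were called in ECs (Tyro3 lost, adjusted p = 0.052) and 1 between mutants (Timd4 lost, adjusted p = 0.052), and all genes called went from 1904 to 1599 in HSC-KO macrophages, 951 to 716 in Smad4 cKO macrophages, 2198 to 2054 in ECs, 425 to 271 in tissue and 489 to 302 between mutants. It changed no other call of the 8 genes in these comparisons. DESeq2 called 814 genes in tissue and 1127 between mutants. Without 1 library the calls went down to 566 in Smad4 cKO macrophages (without Smad4FF replicate 3), 188 in tissue (without control replicate 2) and 239 between mutants (without Smad4FF replicate 3). With limma voom 3 were called between cell types, both with the mouse as a block and, in a fit added after seeing the data, without it, and Tyro3 was lost in both (adjusted p = 0.083 and 0.084). Of 45 calls of pathway genes named by rule, 31 held under all alternatives run (Cd300lf in HSC-KO macrophages and Lgals3 in ECs, named later, were not rerun), and in tissue 1 of 7 did (Stab2). Outside tissue, Rac2, Socs1 and Vav1 in ECs and Lgals3 in HSC-KO macrophages were lost in 6 or more fits.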
